A study of Homo sapiens with 12 samples.

Results

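The genes described here are 10 cytokine receptor and feedback genes out of the 59410 genes in a PRO-seq count table of T47D cells. They were chosen by name, with earlier results of these data known, and the rows are those whose Ensembl ID carries the symbol IL6ST, IL6R, LIFR, OSMR, IL1R1, IL1RAP, IFNGR1, IFNGR2, SOCS2 or SOCS3. PRO-seq sequences the nascent RNA that engaged polymerases extend in a nuclear run-on, so it reads transcription under way rather than RNA that has accumulated. T47D is a human breast cancer line that carries the estrogen receptor and grows in response to estrogen. The table holds 12 libraries in 6 groups of 2. Cells starved of hormones for 3 days were given 1 nM beta-estradiol, or vehicle (DMSO at 0.1% by volume). Cells kept in complete medium, with serum, for 3 days were given 100 nM fulvestrant, 100 nM raloxifene, 100 nM tamoxifen, or the same vehicle. The labels give 1 h for the additions in complete medium, and the series design gives 1 h for those in starved cells. All libraries come from the same line, no label names an altered gene, and the sources used here do not give how the medium was made hormone-free.

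IL6ST encodes gp130, the signalling chain that the receptors for interleukin-6, leukemia inhibitory factor and oncostatin M share. IL6R binds interleukin-6 and hands it to gp130, while LIFR and OSMR pair with gp130 for their own ligands. Signal from gp130 runs through JAK kinases to STAT transcription factors, above all STAT3. SOCS3 and SOCS2 are made in response to such signals and shut them off, SOCS3 at gp130 and SOCS2 mainly at growth hormone receptor. IL1R1 binds interleukin-1 and needs the coreceptor IL1RAP to signal through MYD88 and NF-kappaB, and IFNGR1 and IFNGR2 together form the receptor for interferon-gamma.

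All 10 genes passed the filter on low counts, among 23375 genes tested. They differed widely in depth. IL6ST had 561 to 1639 counts in a library, OSMR 401 to 927, IL1RAP 201 to 550, IL1R1 110 to 433, IL6R 100 to 247 and IFNGR1 46 to 119. Only 38 to 73 counts a library fell on LIFR, 24 to 52 on IFNGR2, 23 to 44 on SOCS3 and 7 to 17 on SOCS2. Levels are given below as CPM (counts scaled to a common library size), scaled between libraries with edgeR's TMM factors. Divided by the length of the RefSeq gene span, so that genes can be set against each other, the mean level over the 12 libraries was highest for IL6ST at 3.02 CPM per kb. SOCS3 followed at 1.38, OSMR at 1.12 and IFNGR1 at 0.620 CPM per kb, and LIFR at 0.0603 and SOCS2 at 0.0335 CPM per kb were lowest.

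Library totals ran from 3682311 to 7856803 counts, both extremes being raloxifene libraries. In no group were the 2 libraries identical copies: the chi-square per gene within these pairs ran from 1.2 to 2.36. Such values do not tell technical repeats from separate cultures, and pairs across groups were not checked. Of 10 luminal epithelial markers, 9 passed the low-count filter, and TFF1, with 0 to 13 counts, did not. Of 5 blood cell markers, 2 passed the filter. PTPRC had 1 to 3, LYZ 0 to 1 and CD3E 3 to 17 counts in a library, and CD68, which carried most of their sum, had 69 to 191. Of 5 fibroblast and endothelial markers, 3 passed: COL1A1, with 58 to 175 counts, VWF, with 10 to 47, and PECAM1, with 4 to 25, while COL3A1 had 0 to 2 and PDGFRB 3 to 8. The labels do not tie the 2 libraries of a group to separate cultures, and the p-values below therefore measure the spread between libraries, which may be technical.

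The promoters of the 4 members that changed with estradiol are printed here. Of these, IL6ST and OSMR each share their promoter with a gene running the other way. Each line gives the 250 bases before a RefSeq start (GRCh38.p14), 5′ to 3′ on the strand of the gene. Capitals mark matches on either strand to the GC box GGGCGG, the CCAAT box CCAAT, the STAT motif TTCNNNGAA, the AP-1 motif TGANTCA or the full palindromic estrogen response element. RefSeq lists 4 starts for IL1R1, which counts per gene cannot tell apart, and those 2 that hold a STAT match or the most GC boxes are shown.
IL6ST, chr5:55994964-55995213, minus strand: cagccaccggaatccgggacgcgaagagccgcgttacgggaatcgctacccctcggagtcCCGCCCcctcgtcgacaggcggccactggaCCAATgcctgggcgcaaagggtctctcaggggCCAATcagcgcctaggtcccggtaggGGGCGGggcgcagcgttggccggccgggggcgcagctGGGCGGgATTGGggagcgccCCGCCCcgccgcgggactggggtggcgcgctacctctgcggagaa
OSMR, chr5:38845762-38846011, plus strand: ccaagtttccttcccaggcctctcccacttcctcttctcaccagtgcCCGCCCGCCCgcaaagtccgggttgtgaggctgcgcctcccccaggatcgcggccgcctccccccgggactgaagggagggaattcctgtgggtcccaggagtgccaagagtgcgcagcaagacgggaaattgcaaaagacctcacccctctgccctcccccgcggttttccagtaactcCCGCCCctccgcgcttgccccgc
IL1R1, chr2:102142056-102142305, plus strand: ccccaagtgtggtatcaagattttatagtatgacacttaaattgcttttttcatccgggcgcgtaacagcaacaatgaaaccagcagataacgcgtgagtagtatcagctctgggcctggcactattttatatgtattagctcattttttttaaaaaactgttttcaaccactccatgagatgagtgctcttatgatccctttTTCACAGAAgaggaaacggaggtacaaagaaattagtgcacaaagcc
IL1R1, chr2:102142496-102142745, plus strand: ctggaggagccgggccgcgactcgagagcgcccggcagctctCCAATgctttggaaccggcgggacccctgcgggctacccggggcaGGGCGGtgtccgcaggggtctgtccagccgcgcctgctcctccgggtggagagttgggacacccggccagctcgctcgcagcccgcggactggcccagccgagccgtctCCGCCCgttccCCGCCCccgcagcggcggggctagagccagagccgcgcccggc
IL1RAP, chr3:190513835-190514084, plus strand: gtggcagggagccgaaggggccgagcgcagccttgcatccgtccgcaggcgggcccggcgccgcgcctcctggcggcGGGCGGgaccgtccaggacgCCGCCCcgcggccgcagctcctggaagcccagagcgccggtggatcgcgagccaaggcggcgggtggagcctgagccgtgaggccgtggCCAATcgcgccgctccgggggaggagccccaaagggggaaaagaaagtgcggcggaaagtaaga

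The IL6ST stretch held 4 GC boxes and 3 CCAAT boxes, the OSMR stretch 3 GC boxes, of which 2 overlap, and the IL1RAP stretch 2 GC boxes and 1 CCAAT box. Such boxes are common: 42.6% of all 35116 RefSeq promoter stretches of this length hold the GC box and 32.0% the CCAAT box. No stretch of the 9 members in the promoter table held that estrogen response element, which only 0.0399% of all stretches hold, and no AP-1 match was found in them, against 6.57% of all stretches. The shorter core GGTCA, held by 32.6% of stretches, was absent from those printed. The STAT motif, held by 6.57% of stretches, was found once upstream of an IL1R1 start, 47 bases before it, and upstream of 2 of the 3 listed LIFR starts. These are matches of letters, and an absent match speaks only of this window. Inside the IL6ST stretch lies the start of IL6ST-DT, a long noncoding RNA gene that points away from IL6ST and begins 204 bases from its start. Inside the OSMR stretch lies the start of OSMR-DT in the same arrangement, 183 bases from that of OSMR.

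**Figure D1:**
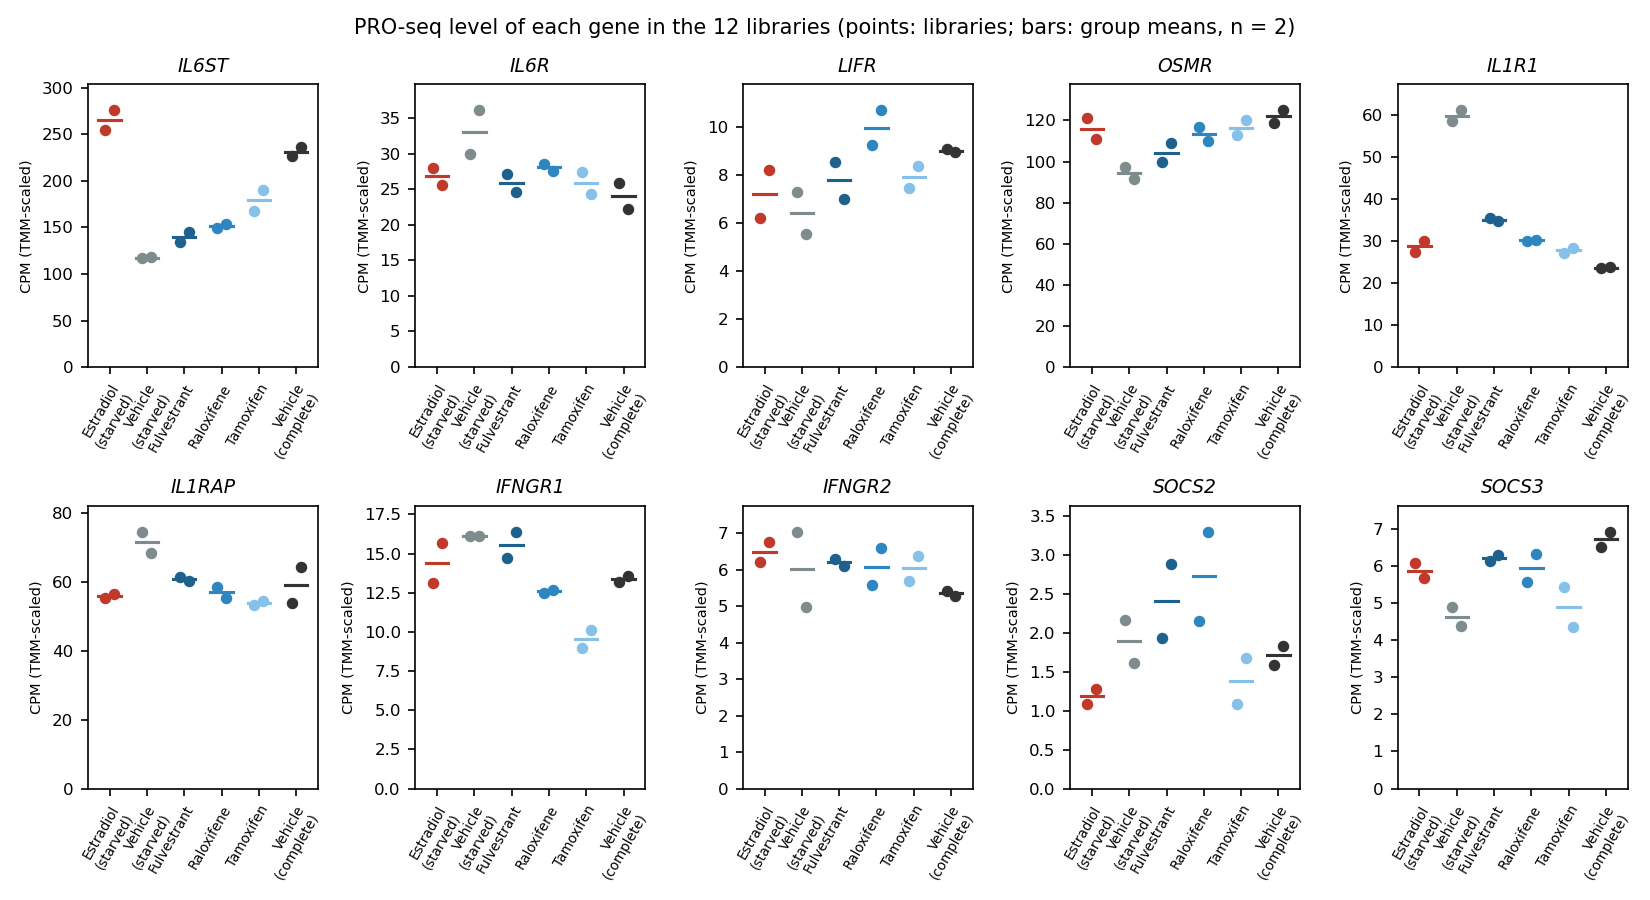
Level of each of the 10 genes in the 12 libraries, in CPM after TMM scaling; points are libraries, bars are group means (n = 2), and each panel has its own axis starting at 0. The 6 groups of IL6ST are fully separated, with estradiol at 255 and 276 CPM and starved vehicle at 117 and 118 CPM, and IL1R1 peaks in starved vehicle cells.

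The first comparison asks what an hour of estradiol did in hormone-starved cells. Transcription of IL6ST, the shared gp130 chain, was 2.26-fold higher, and that of OSMR rose slightly, while IL1R1 fell 2.08-fold and its coreceptor IL1RAP fell slightly. Against starved vehicle, 2 members rose, 2 fell and 6 did not pass, where 8.77% of all genes tested passed in either direction, 5.04% as higher and 3.74% as lower. That split of 1177 higher and 874 lower genes became 1024 and 1217 without scaling between libraries. The median log2 fold change of the members was -0.0346, against -0.0132 over all genes. A call here means an adjusted p under 0.05 from edgeR's quasi-likelihood test with Benjamini-Hochberg adjustment over all 23375 genes, two-sided.

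IL6ST (ENSG00000134352, chr5:55935095-55994963) stood at 255 and 276 CPM in estradiol libraries 3 and 4, against 117 and 118 CPM in starved vehicle libraries. The 2 groups were far apart, and the spread within each was small. The log2 fold change was 1.18 ± 0.0668 (SE), a 2.26-fold higher level with estradiol (edgeR adjusted p = 5.7e-11). Among the 1177 genes called higher, 223 had a larger change. In bulk counts, a change in every cell and a change in the share of cells that transcribe a gene cannot be told apart. OSMR (ENSG00000145623, chr5:38846012-38945579), the oncostatin M chain, stood at 121 and 111 CPM with estradiol, against 97.5 and 91.5 CPM with vehicle. Those libraries did not overlap either, but the step was only 1.23-fold (log2 0.30 ± 0.0715, edgeR adjusted p = 0.0094). The OSMR call was lost without starved vehicle library 4 (edgeR adjusted p = 0.14), without estradiol library 3 (0.16) and with DESeq2 (0.053), the range over 10 alternatives being 0.00063 to 0.16.

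The partner genes that start in the same promoter stretches moved the same way with estradiol. IL6ST-DT stood at 27.4 and 27.0 CPM in estradiol libraries and 20.6 and 17.8 CPM in starved vehicle libraries (log2 0.50 ± 0.117, edgeR adjusted p = 0.0076). OSMR-DT stood at 105 and 109 CPM with estradiol and 90.7 and 80.1 CPM with vehicle (log2 0.32 ± 0.0838, edgeR adjusted p = 0.016). Both rose, IL6ST-DT by less than IL6ST and OSMR-DT by about as much as OSMR, though the differences between the partners were not tested. In the other 8 comparisons neither noncoding partner passed. The 3' end of OSMR overlaps the gene RICTOR, whose log2 fold change with estradiol was -0.08 ± 0.0720.

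IL1R1 (ENSG00000115594, chr2:102070390-102179874), the receptor that binds interleukin-1, stood at 27.5 and 30.1 CPM in estradiol libraries, against 58.6 and 61.2 CPM in starved vehicle libraries. Every estradiol value lay below every vehicle value. The log2 fold change was -1.06 ± 0.0910, a level 2.08-fold lower with estradiol (edgeR adjusted p = 3.9e-08), and of 874 genes called lower, 28 fell further. IL1RAP (ENSG00000196083, chr3:190514085-190659750), its coreceptor, stood at 55.2 and 56.4 CPM with estradiol and 74.5 and 68.4 CPM with vehicle. It fell by 0.36 ± 0.0862 on the log2 scale (edgeR adjusted p = 0.0092). That call was lost without starved vehicle library 3 (0.17), without estradiol library 3 (0.10) or 4 (0.056) and with DESeq2 (0.10), the range of edgeR and DESeq2 adjusted p over 10 alternatives being 0.00076 to 0.17.

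The other 6 members did not pass with estradiol. IL6R (ENSG00000160712, chr1:154405343-154469450), the interleukin-6 binding chain, stood at 28.0 and 25.6 CPM against 29.9 and 36.1 CPM with vehicle (log2 -0.29, 95% interval -0.54 to -0.05, edgeR adjusted p = 0.16). The groups of IL6R did not overlap, but the share of all genes whose libraries separate so was not computed. For LIFR (ENSG00000113594, chr5:38474668-38608403) the interval of the log2 fold change ran from -0.32 to 0.61. For the interferon-gamma receptor chains it ran from -0.47 to 0.13 for IFNGR1 (ENSG00000027697, chr6:137197484-137219385) and from -0.37 to 0.57 for IFNGR2 (ENSG00000159128, chr21:33402882-33437516). For the feedback inhibitors it was wider still, -0.14 to 0.82 for SOCS3 (ENSG00000184557, chr17:78356778-78360925) and -1.66 to 0.31 for SOCS2 (ENSG00000120833, chr12:93569969-93626236). SOCS2 had 7 counts in each estradiol library and 16 and 11 in the starved vehicle libraries. At this depth, changes of SOCS2 within its interval could not be told apart, and the smallest detectable change was not computed.

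**Figure D2:**
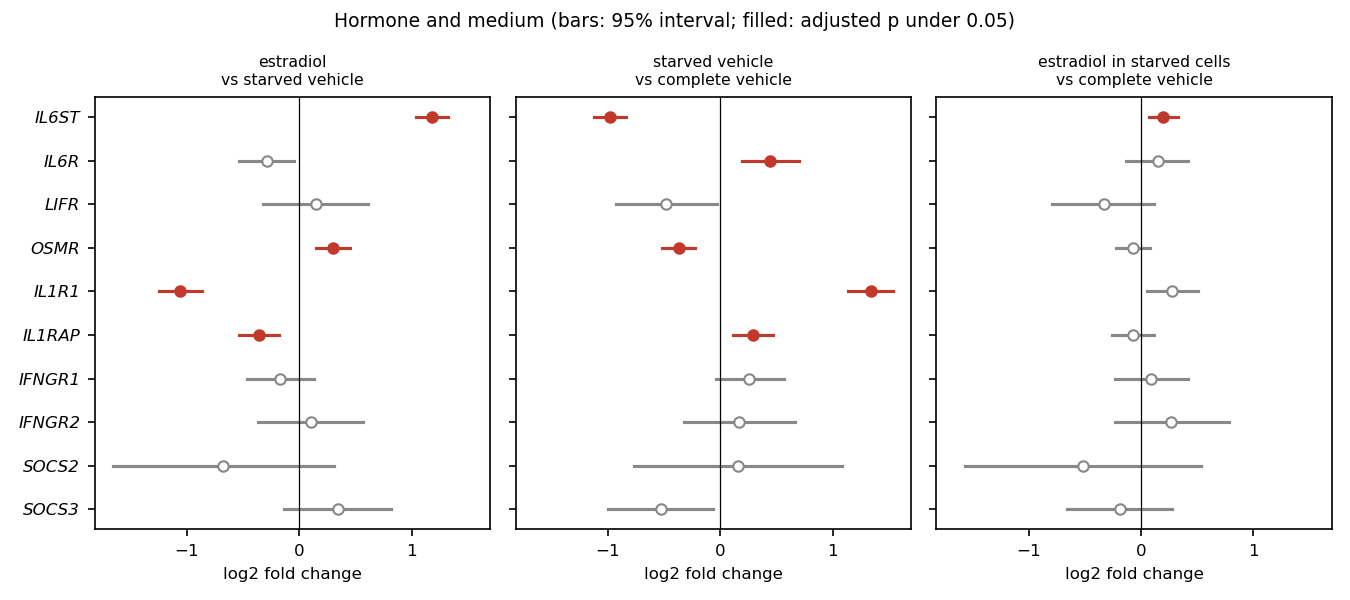
Log2 fold changes of the 10 genes in the 3 comparisons that involve starved cells, with 95% intervals from edgeR; filled points have an adjusted p under 0.05. IL6ST and OSMR lie to the right with estradiol against starved vehicle and to the left with starved vehicle against complete vehicle, IL1R1 and IL1RAP the other way round, and the SOCS2 intervals are the widest.

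Starved vehicle cells were then set against vehicle cells in complete medium, which asks how the members differ between the 2 media without any drug. IL1R1 was over 2-fold higher in starved cells and IL6ST about as much lower, with smaller steps in IL6R, IL1RAP and OSMR. In all, 3 members were called higher, 2 lower and 5 did not pass, where 18.8% of all genes passed, 9.10% as higher and 9.67% as lower. The median log2 fold change of the members was 0.163, against 0.00727 over all genes. This comparison and the estradiol one share the starved vehicle libraries, so opposite signs in the 2 are not independent of each other.

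IL6ST stood at 117 and 118 CPM in starved vehicle libraries, against 227 and 236 CPM in complete vehicle libraries, a log2 fold change of -0.98 ± 0.0677 (edgeR adjusted p = 1.3e-09). OSMR stood at 97.5 and 91.5 CPM in starved vehicle libraries and 119 and 125 CPM in complete vehicle libraries (log2 -0.37 ± 0.0717, edgeR adjusted p = 0.00085). IL6ST and its partner OSMR were thus lower in starved cells, by 1.97-fold and 1.29-fold in that order, and both calls held in all 10 alternatives. IL1R1 stood at 58.6 and 61.2 CPM in starved vehicle libraries, against 23.5 and 23.8 CPM in complete vehicle libraries. Its log2 fold change of 1.34 ± 0.0955 was a 2.53-fold higher level (edgeR adjusted p = 1.9e-09), and 174 of the 2126 genes called higher exceeded it.

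IL1RAP, the interleukin-1 coreceptor, was higher by less, at 74.5 and 68.4 CPM in starved vehicle libraries and 53.8 and 64.4 CPM in complete vehicle libraries (log2 0.29 ± 0.0865, edgeR adjusted p = 0.024). The call was lost without starved vehicle library 3 (edgeR adjusted p = 0.22), without complete vehicle library 3 (log2 0.156, edgeR adjusted p = 0.40) and with DESeq2 (0.19), the range over alternatives being 0.0047 to 0.40. IL6R stood at 29.9 and 36.1 CPM in starved vehicle libraries and 25.9 and 22.2 CPM in complete vehicle libraries (log2 0.44 ± 0.123, edgeR adjusted p = 0.014). IL6R was thus higher in starved cells while its signalling partner IL6ST was lower, but the IL6R call was lost without starved vehicle library 4 (edgeR adjusted p = 0.20), without complete vehicle library 4 (0.15) and with DESeq2 (0.12), with a range of 0.003 to 0.20.

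Of the members that did not pass, SOCS3 stood at 4.88 and 4.39 CPM in starved vehicle libraries and 6.52 and 6.92 CPM in complete vehicle libraries (log2 -0.53 ± 0.226, edgeR adjusted p = 0.12). LIFR stood at 7.31 and 5.55 CPM in starved vehicle libraries and 9.07 and 8.96 CPM in complete vehicle libraries (log2 -0.48, interval -0.93 to -0.03, edgeR adjusted p = 0.14). Neither gene passed. Neither pair of groups overlapped, but the share of all genes whose libraries separate so was not computed. Both share their span with a noncoding gene that did pass. LIFR-AS1 was higher in starved vehicle cells (log2 0.48 ± 0.164, edgeR adjusted p = 0.045) and SOCS3-DT lower (log2 -0.71 ± 0.234, edgeR adjusted p = 0.039). The sources used here do not give whether the authors counted by strand, so reads of such overlapping pairs cannot be told apart. LIFR-AS1 had 62 to 134 counts in a library, against 38 to 73 for LIFR.

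Summed luminal markers lay at 5857 to 6070 CPM in estradiol, 4157 to 4174 CPM in starved vehicle and 6073 to 6174 CPM in complete vehicle libraries, lowest in the starved vehicle group. Of the 9 tested, 6 rose and 1 fell with estradiol, PGR by a log2 fold change of 1.40 and FOXA1 by -0.39 among them (list median 0.391, against -0.0132 over all genes). Over all genes, 5.04% rose and 3.74% fell. The 5 blood cell markers summed to 27.1 to 28.5 CPM with estradiol, 24.0 to 24.9 CPM in starved vehicle and 20.4 to 23.9 CPM in complete vehicle libraries. The 5 fibroblast and endothelial markers summed to 26.9 to 30.1 CPM with estradiol, 27.0 to 30.2 CPM in starved vehicle and 23.9 to 24.6 CPM in complete vehicle libraries. No tested gene of either list passed by edgeR or DESeq2 with estradiol or between the vehicle groups. At an unadjusted p under 0.05 there were 0 with estradiol and 1 between the vehicle groups, COL1A1, higher by a log2 of 0.29 in starved than in complete vehicle cells (interval 0.01 to 0.57, edgeR adjusted p = 0.16). Their part in the changes of the receptor genes was not tested.

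Starved cells given estradiol differed from complete vehicle cells in 1 member, where 16.2% of all genes passed, 8.09% as higher and 8.11% as lower. IL6ST stood at 255 and 276 CPM with estradiol and 227 and 236 CPM in complete vehicle libraries (log2 0.20 ± 0.0642, edgeR adjusted p = 0.038). That small step was lost without estradiol library 4 (edgeR adjusted p = 0.29), without complete vehicle library 3 (0.23) or 4 (0.088) and with DESeq2 (0.14), the range over alternatives being 0.002 to 0.29. IL1R1 stood at 27.5 and 30.1 CPM with estradiol and 23.5 and 23.8 CPM in complete vehicle libraries (log2 0.28, interval 0.05 to 0.51, edgeR adjusted p = 0.091). For OSMR the interval was -0.22 to 0.08 and for IL1RAP -0.26 to 0.12. With an hour of estradiol, IL6ST, IL1R1, OSMR and IL1RAP stood nearer to the complete vehicle level than the starved vehicle libraries did. Their absolute log2 differences from complete vehicle were 0.07 to 0.28 with estradiol. These 4 members were picked by their difference between the same estradiol and starved vehicle libraries, which favours such an outcome. The OSMR and IL1RAP calls with estradiol did not hold in all alternatives.

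The drug comparisons ask what an hour of an estrogen receptor ligand does in complete medium. Fulvestrant is a steroidal antagonist that also leads to breakdown of the receptor, and raloxifene, a benzothiophene, and tamoxifen, a triphenylethylene, are selective modulators. IL6ST was lower with each of the 3 drugs, and its level was lowest with fulvestrant and highest of the 3 with tamoxifen. Between drugs only tamoxifen against fulvestrant passed for IL6ST, a call that did not hold in all 10 alternatives. IL1R1 was higher with fulvestrant, and no other member passed against vehicle with any drug. All 3 comparisons use the same complete vehicle libraries, so their values stand side by side here and are not separate evidence.

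IL6ST stood at 134 and 145 CPM in fulvestrant libraries, 149 and 154 CPM in raloxifene libraries and 168 and 190 CPM in tamoxifen libraries, against 227 and 236 CPM in complete vehicle libraries. No drug group overlapped another drug group or the vehicle, and 117 and 118 CPM in starved vehicle cells lay below all of them. With fulvestrant the log2 fold change was -0.73 ± 0.0678 (edgeR adjusted p = 9.5e-07), a level 1.66-fold lower. With raloxifene it was -0.61 ± 0.0680 (edgeR adjusted p = 4.2e-05), 1.53-fold lower. With tamoxifen it was -0.38 ± 0.0656 (edgeR adjusted p = 0.036), 1.30-fold lower. The fulvestrant and raloxifene calls held in all 10 alternatives. The tamoxifen call was lost without complete vehicle library 3 (edgeR adjusted p = 0.42) or 4 (0.40) and without tamoxifen library 3 (log2 -0.290, edgeR adjusted p = 0.61), the range over alternatives being 6e-06 to 0.61. With fulvestrant 2 of the 10 members passed, where 1.16% of all genes did, 0.107% as higher and 1.05% as lower. With raloxifene 1 member passed, where 0.569% of all genes did, 0.0898% as higher and 0.479% as lower. With tamoxifen 1 member passed, where 0.0513% of all genes did, 0.00428% as higher and 0.0471% as lower. With tamoxifen IL6ST was among 11 genes called lower in all, of which 8 fell further.

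IL1R1 stood at 35.4 and 34.9 CPM in fulvestrant libraries, 30.1 and 30.3 CPM in raloxifene libraries and 27.2 and 28.4 CPM in tamoxifen libraries, against 23.5 and 23.8 CPM in complete vehicle libraries. Every drug library lay above both vehicle libraries. With fulvestrant IL1R1 was higher by 0.57 ± 0.106 on the log2 scale (edgeR adjusted p = 0.0045), the largest change among the 25 genes called higher. The size hardly moved between alternatives, 0.55 to 0.59, but the call was lost without complete vehicle library 3 (edgeR adjusted p = 0.11) or 4 (0.054), without fulvestrant library 3 (0.075) and with DESeq2 (0.080), the range being 0.00053 to 0.11. With raloxifene the log2 fold change was 0.35 (interval 0.12 to 0.58, edgeR adjusted p = 0.23) and with tamoxifen 0.23 (interval 0.00 to 0.46, edgeR adjusted p = 0.76), and neither passed.

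**Figure D3:**
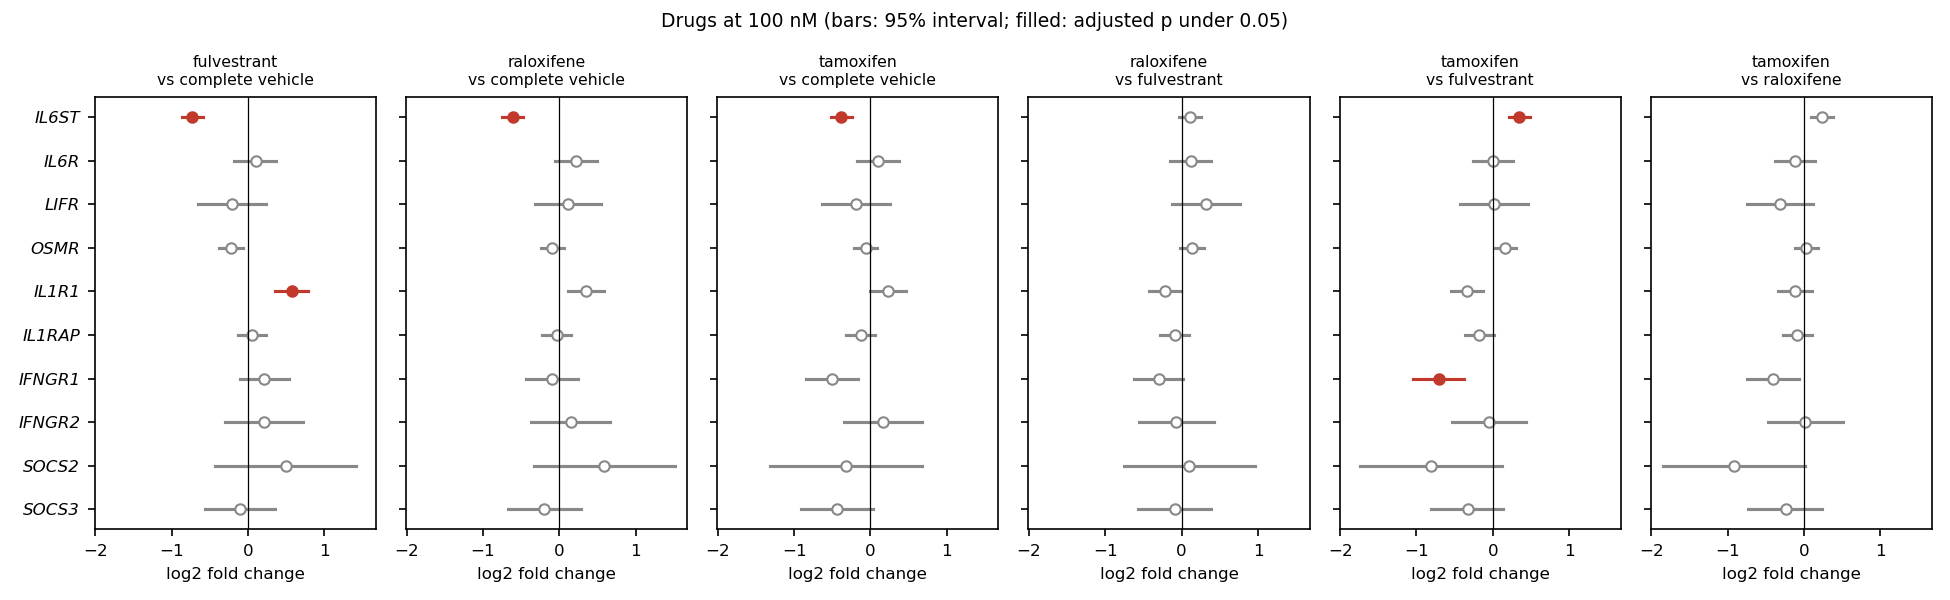
Log2 fold changes of the 10 genes for the 3 drugs against complete vehicle and for the 3 pairs of drugs, with 95% intervals from edgeR; filled points have an adjusted p under 0.05. IL6ST lies at -0.73, -0.61 and -0.38 in the vehicle panels, and on the other side of 0 the only filled point there is IL1R1 with fulvestrant, while the interval of IL1R1 with raloxifene, 0.12 to 0.58, also lies above 0.

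Over all 10 members the median log2 fold change was 0.0760 with fulvestrant, 0.0412 with raloxifene and -0.160 with tamoxifen, against 0.00586, 0.00607 and 0.00468 over all genes. The remaining members did not pass. OSMR stood at 99.8 and 109 CPM with fulvestrant and 119 and 125 CPM with vehicle (log2 -0.23, interval -0.38 to -0.07, edgeR adjusted p = 0.26), and its intervals were -0.24 to 0.06 with raloxifene and -0.21 to 0.08 with tamoxifen. The coreceptor IL1RAP had intervals of -0.13 to 0.24, -0.23 to 0.16 and -0.32 to 0.06 with fulvestrant, raloxifene and tamoxifen in that order, and IL6R of -0.18 to 0.37, -0.06 to 0.49 and -0.17 to 0.37. IFNGR1 stood at 8.95 and 10.1 CPM with tamoxifen and 13.2 and 13.6 CPM with vehicle. Its log2 fold change of -0.50 (interval -0.84 to -0.16) did not pass (edgeR adjusted p = 0.58). For SOCS3, at 4.36 to 6.33 CPM in the drug libraries and 6.52 and 6.92 CPM with vehicle, the largest difference was with tamoxifen (log2 -0.44, interval -0.91 to 0.03). For SOCS2, with 8 to 17 counts in the drug libraries, the widest interval ran from -1.32 to 0.68, with tamoxifen.

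The 3 drugs were also compared with each other at the same dose and time, in 3 pairs. Tamoxifen left IL6ST higher than fulvestrant did (log2 0.35 ± 0.0682, 1.28-fold, edgeR adjusted p = 0.014). The call was lost without fulvestrant library 3 (log2 0.299, edgeR adjusted p = 0.41), without tamoxifen library 4 (log2 0.259, 0.30) and in a fit of these 2 groups alone (0.11), the range being 2.5e-05 to 0.41. IFNGR1 was lower with tamoxifen, at 8.95 and 10.1 CPM, than with fulvestrant, at 14.7 and 16.4 CPM (log2 -0.71 ± 0.157, edgeR adjusted p = 0.047). It rests on 66 and 60 counts with tamoxifen against 91 in each fulvestrant library. This call was the least firm of all: it was lost without either fulvestrant library (edgeR adjusted p = 0.20 without 3 and 0.46 without 4), without either tamoxifen library (0.52 without 3 and 0.12 without 4), in a fit of the 2 groups alone (0.22) and with DESeq2 (0.64), the range being 0.0087 to 0.64. These were 2 of 10 members, where 0.462% of all genes passed, 0.453% as higher and 0.00856% as lower.

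Raloxifene against fulvestrant gave no call by edgeR among the 10 members, 1 at an unadjusted p under 0.05 (IL1R1, log2 -0.22, interval -0.43 to -0.01) and none with DESeq2, where 0.103% of all genes passed, all as higher (0.00% as lower). For IL6ST the interval between raloxifene and fulvestrant was -0.03 to 0.26. Tamoxifen against raloxifene gave no call by edgeR either, 2 at an unadjusted p under 0.05 and none with DESeq2, where 0.00428% of all genes passed, as higher, and 0.00% as lower. Those 2 were IL6ST (log2 0.24, interval 0.09 to 0.38) and IFNGR1 (log2 -0.41, interval -0.75 to -0.07), both with an edgeR adjusted p of 1.0. For IL1R1 the difference was -0.34 (interval -0.55 to -0.13, edgeR adjusted p = 0.28) with tamoxifen against fulvestrant and -0.12 (interval -0.34 to 0.10) with tamoxifen against raloxifene. A graded order of the drugs in IL1R1 was therefore seen in the library values but not in the tests.

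Seen over all 6 groups, IL6ST alone among the members had a fully separated order of levels, with no overlap between neighbours. From the top, its order was estradiol in starved cells, complete vehicle, tamoxifen, raloxifene, fulvestrant and starved vehicle. IL1R1 ran nearly the other way, starved vehicle first, then fulvestrant, then raloxifene, estradiol and tamoxifen with overlapping neighbours, then complete vehicle. For OSMR the top 4 groups (complete vehicle, tamoxifen, estradiol, raloxifene) overlapped from neighbour to neighbour, and fulvestrant and starved vehicle were separate below them. For IL1RAP starved vehicle stood apart at the top, and tamoxifen, at the bottom, overlapped complete vehicle. For IFNGR1 tamoxifen stood apart at the bottom, raloxifene above it. For LIFR raloxifene and then complete vehicle stood apart at the top. For SOCS3 complete vehicle stood apart at the top, and tamoxifen and starved vehicle lay below the rest. For IL6R only starved vehicle was separate from its neighbour. For IFNGR2, at 4.97 to 7.04 CPM over the 12 libraries, and SOCS2 every neighbouring pair of groups overlapped. The share of all tested genes whose groups separate in such ways was not computed, so none of these orders is shown to be unusual.

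Over the 12 libraries, log2 CPM of IL1R1 and OSMR had a Pearson correlation of -0.92, IL1R1 and IL1RAP 0.80, IL6ST and OSMR 0.77 and IL6ST and IL1R1 -0.77. These are descriptions of 12 libraries that share 6 group conditions and their depth. Among 14628 other genes with a mean of at least 50 counts, those most like IL6ST were ZNF587B (0.985), ZBTB40 (0.984) and KCTD6 (0.979). Those most like IL1R1 were ARHGEF37 (0.982), ARID5B (0.973) and VGLL4 (0.970), and those most like OSMR were FAF2 (0.954) and RMST (0.945). CDHR2 (0.936) was closest to IL1RAP, GATA3-AS1 (0.915) to IFNGR1 and PPP1R21 (0.897) to IL6R. For the sparse genes the closest were HNRNPH1 (0.887) for LIFR, G3BP2 (0.923) for IFNGR2, BACH1-IT3 (0.919) for SOCS2 and PAXIP1-DT (0.874) for SOCS3. SOCS2 had only 7 to 17 counts in a library. All these partners were picked as the highest of many correlations over 12 libraries. How high such maxima run by chance was not computed, so none of these matches is shown to be unusual.

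The genes around these receptors in the pathway were read from lists chosen by function. Among the JAK kinases and STAT factors, JAK1, a kinase used by gp130 and by the interferon receptors, moved the same way as IL6ST. JAK1 stood at 548 and 493 CPM with estradiol and 195 and 188 CPM in starved vehicle libraries (log2 1.44 ± 0.0561, edgeR adjusted p = 2.2e-13). JAK2 rose by less (log2 0.49 ± 0.0814, edgeR adjusted p = 0.00025), and the other 9 of 11 did not pass (list median -0.0275, against -0.0132 over all genes). Over all genes, 5.04% rose and 3.74% fell with estradiol. In starved vehicle cells JAK1 was lower than in complete vehicle cells (log2 -1.39 ± 0.0563, edgeR adjusted p = 3.8e-13). STAT3, the main factor downstream of gp130, was higher there, at 193 and 192 CPM in starved vehicle libraries and 137 and 138 CPM in complete vehicle libraries (log2 0.49 ± 0.0647, edgeR adjusted p = 1.1e-05). STAT2 (log2 0.43, edgeR adjusted p = 0.010) and STAT6 (log2 0.28, edgeR adjusted p = 0.026) were also higher. Of this list edgeR called 4 genes between the vehicle groups and DESeq2 2, where edgeR called 18.8% of all genes. With estradiol present STAT3 stood at 177 and 186 CPM, close to starved vehicle cells.

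With the drugs JAK1 stood at 304 and 293 CPM in fulvestrant, 398 and 404 CPM in raloxifene and 427 and 447 CPM in tamoxifen libraries, against 499 and 507 CPM in complete vehicle libraries. All drug libraries lay below vehicle, and the levels of JAK1 stood in the same order of drugs as those of IL6ST. JAK1 fell with fulvestrant (log2 -0.75 ± 0.0551, edgeR adjusted p = 2.9e-08) and raloxifene (log2 -0.33 ± 0.0545, edgeR adjusted p = 0.0034). It was higher with raloxifene (log2 0.43) and with tamoxifen (log2 0.55) than with fulvestrant, at edgeR adjusted p = 0.00054 and 6.2e-06.

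**Figure D4:**
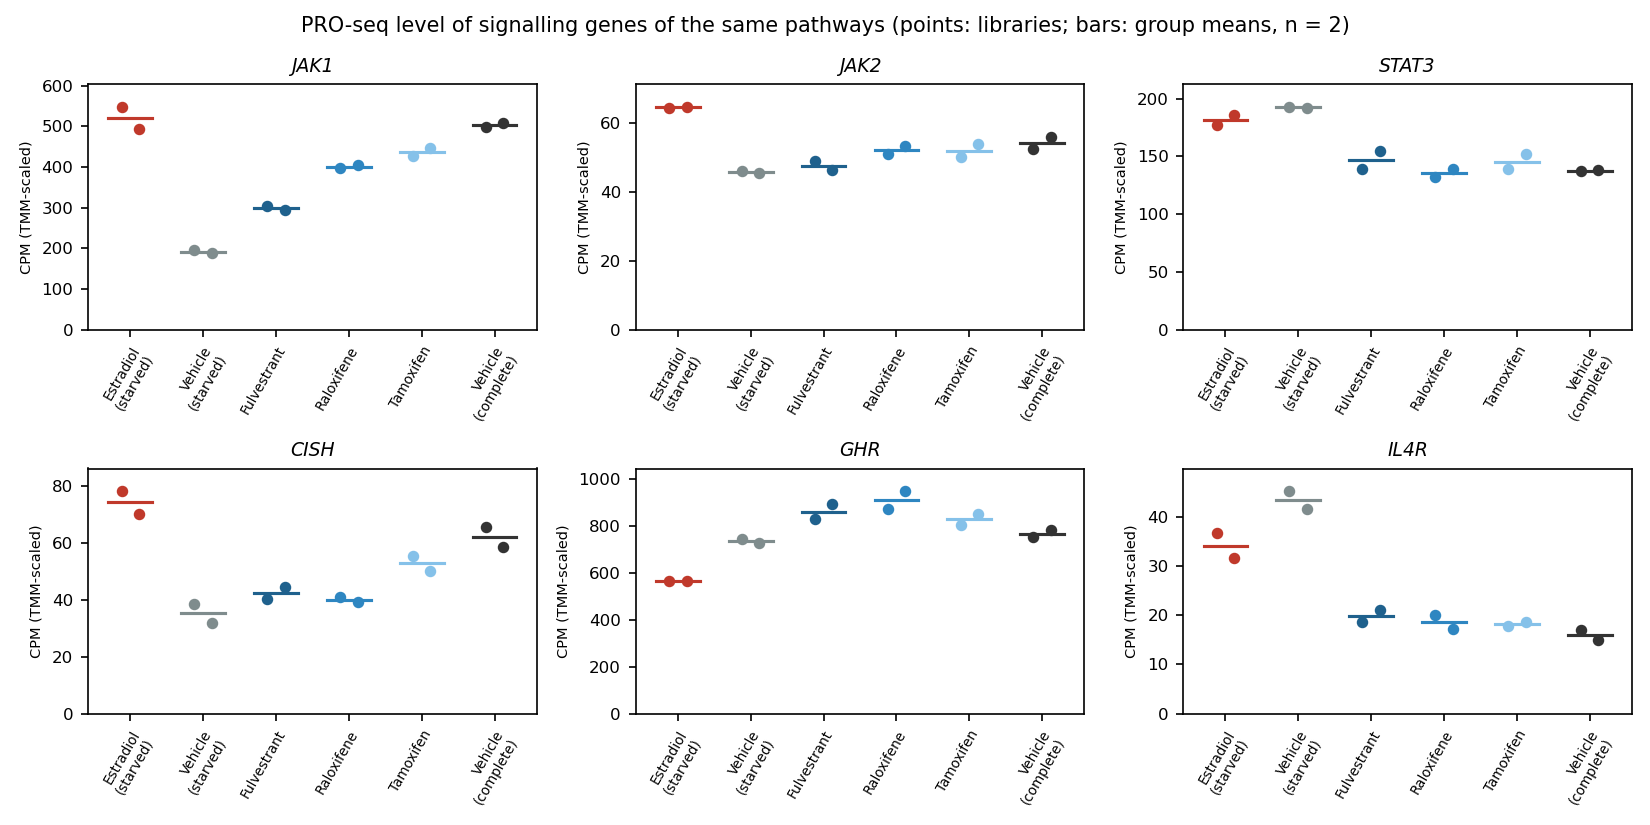
Level in CPM after TMM scaling of 6 genes of the same pathways in the 12 libraries; points are libraries, bars are group means (n = 2), and each axis starts at 0. JAK1 and CISH are high with estradiol and in complete vehicle cells and low in starved vehicle cells, and STAT3 and IL4R are high in both groups of starved cells.

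Of 15 tested negative regulators of JAK-STAT other than the members, 2 rose with estradiol and none fell, where 5.04% of all genes rose and 3.74% fell. The list median was 0.0201 against -0.0132 for all genes. CISH, a SOCS family inhibitor that acts on STAT5 signals, stood at 78.4 and 70.3 CPM with estradiol and 38.6 and 31.9 CPM in starved vehicle libraries (log2 1.08 ± 0.101, edgeR adjusted p = 1.5e-07), and PTPN1, a phosphatase of JAK2, rose by 0.36 ± 0.0608 (edgeR adjusted p = 0.00033). CISH thus changed where SOCS2 and SOCS3, of the same family, did not pass, though the difference between the genes was not tested. CISH fell with fulvestrant, to 40.4 and 44.4 CPM, and with raloxifene, to 41.0 and 39.1 CPM, against 65.5 and 58.7 CPM with complete vehicle (log2 -0.56 and -0.63, edgeR adjusted p = 0.0049 and 0.0044). In starved vehicle cells 3 regulators were higher and 3 lower than in complete vehicle cells, PTPN11 (log2 0.41) and CISH (log2 -0.82) having the smallest adjusted p in each direction, and DESeq2 called 2 of these 6. Of all genes 9.10% were higher and 9.67% lower in that comparison, and the list median was 0.0184, against 0.00727 over all genes.

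Among 18 tested receptors of the wider class I and II family, none rose and 2 fell with estradiol (list median -0.0201, against -0.0132 for all genes). Over all genes, 5.04% rose and 3.74% fell. GHR, the growth hormone receptor that SOCS2 restrains, stood at 564 and 566 CPM with estradiol and 745 and 726 CPM with vehicle (log2 -0.38 ± 0.0520, edgeR adjusted p = 2.6e-05). IL4R, which binds interleukin-4, stood at 36.7 and 31.6 CPM with estradiol and 45.4 and 41.7 CPM with vehicle (log2 -0.35 ± 0.106, edgeR adjusted p = 0.047), and DESeq2 called only 1 of these 2 receptors. IL4R was lower with estradiol, and far higher in starved vehicle libraries than in complete vehicle libraries, at 17.0 and 14.9 CPM (log2 1.44 ± 0.124, edgeR adjusted p = 3.0e-08). GHR rose with raloxifene, to 873 and 949 CPM, against 750 and 783 CPM with complete vehicle (log2 0.25 ± 0.0518, edgeR adjusted p = 0.029). It also lay above vehicle with fulvestrant, at 827 and 891 CPM (log2 0.17, edgeR adjusted p = 0.23), and with tamoxifen, at 805 and 851 CPM (log2 0.11, 0.75), without passing. Raloxifene did not pass against fulvestrant for GHR (log2 0.08, edgeR adjusted p = 0.98), so the rise is not shown to be particular to raloxifene. Of 8 further receptors of the gp130 family, LEPR, the leptin receptor, was the only gene called in any of the 9 comparisons, higher by 0.35 in starved vehicle cells and by 0.33 in estradiol cells than in complete vehicle cells. In those comparisons 18.8% and 16.2% of all genes passed, in that order.

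Ligands for these receptors were hardly transcribed. IL6 had 0 to 3 counts in a library, OSM 0 to 4, LIF 2 to 12, IL1A 0 to 2 and IL1B 0 to 1, and none of them passed the low-count filter. Of the gp130 ligands that did, CTF1, cardiotrophin, was higher in starved vehicle cells (log2 0.58 ± 0.157, edgeR adjusted p = 0.012) and in estradiol cells (log2 0.67 ± 0.160, edgeR adjusted p = 0.0053) than in complete vehicle cells, and CLCF1, a related cytokine, was lower in starved vehicle cells (log2 -0.59 ± 0.183, edgeR adjusted p = 0.027). DESeq2 called neither in starved vehicle cells. Of 18 interleukin-1 family ligands and further receptors of that family, 6 passed the low-count filter and none was called in any comparison by edgeR or DESeq2, with 1 at an unadjusted p under 0.05 with estradiol and 2 with raloxifene.

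Downstream of the interleukin-1 receptor, 24 genes of the MYD88 and NF-kappaB route were tested (list median -0.00213 with estradiol, against -0.0132 for all genes). With estradiol 3.74% of all genes fell, and a like share of the list did, 1 gene. That was IRAK3, which restrains the route, at 4.04 and 2.74 CPM with estradiol and 6.23 and 7.16 CPM with starved vehicle, from 15 to 49 counts (log2 -0.96 ± 0.270, edgeR adjusted p = 0.029). In starved vehicle cells 4 of the 24 were higher and 1 lower than in complete vehicle cells, a share near the 18.8% of all genes that passed (list median 0.0834, against 0.00727). Among them IRAK3 differed by 1.13 ± 0.281, NFKB2 by 0.49 ± 0.130, TAB3 by 0.38 ± 0.0979 and TAB1 by -0.28 ± 0.0964. DESeq2 called none of these and did not call IRAK3 with estradiol either. No gene of this route passed with any drug by either tool, where 4, 2 and 0 genes had an unadjusted p under 0.05 with fulvestrant, raloxifene and tamoxifen in that order.

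Of 11 tested genes known as STAT3 targets, 5 rose with estradiol and none fell, where 5.04% of all genes rose and 3.74% fell. The list median was 0.310 against -0.0132 for all genes, and DESeq2 called 4 of the list. MYC stood at 154 and 146 CPM with estradiol and 57.2 and 45.5 CPM with vehicle (log2 1.54 ± 0.0958, edgeR adjusted p = 2.3e-10), and FOS rose by 1.12 ± 0.240, BCL3 by 0.70 ± 0.111, BCL6 by 0.56 ± 0.0584 and CEBPB by 0.38 ± 0.118. These genes answer to many factors, and MYC and FOS are also known estrogen targets. With fulvestrant MYC (log2 -1.13) and BCL6 (log2 -0.36) were lower, and with raloxifene MYC was (log2 -0.68). Of 7 tested interferon-gamma target genes (list median -0.0757) none passed with estradiol by edgeR, 1 at an unadjusted p under 0.05 and none with DESeq2. Most were sparse: PSMB8 had 2 to 14 counts in a library, GBP2 7 to 17, TAP1 8 to 26, CD74 8 to 25 and ICAM1 8 to 23. CIITA had 16 to 53 and IRF1 119 to 304. At such depth the lack of calls does not show that the sparse targets were unchanged. IRF1, an early target of interferon-gamma, was higher in starved vehicle libraries, at 39.0 and 44.4 CPM, than in complete vehicle libraries, at 35.0 and 28.9 CPM (log2 0.37 ± 0.111, edgeR adjusted p = 0.023), a call that DESeq2 did not make.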

How the data were processed

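PRO-seq was measured in 12 libraries of T47D cells, 2 in each of 6 groups taken from the labels. The labels number the libraries of a group 3 and 4 in their descriptions and 1 and 2 in their titles, and 3 and 4 are used here. The authors deposited raw read counts, whole numbers per Ensembl gene ID, not normalized. The tools named, per the submitters' processing notes, are Bowtie2 2.4.4, SAMtools 1.9 and cutadapt 1.8.1, with build hg38. The sources used here do not give how reads were counted, by which annotation, strand setting or part of a gene, so overlapping and antisense genes are uncertain and pausing cannot be separated from elongation.

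Of 60605 IDs, 142 without a symbol (0.28% of counts) kept their ID, and where IDs shared a symbol the one with the highest total was kept, which left 59410 genes. Genes passing filterByExpr (23375) were fitted together over all 6 groups with edgeR 4.0.16 (R 4.3.3; TMM scaling, quasi-likelihood test, group as the only term), and p-values were adjusted by Benjamini-Hochberg over all tested genes at 0.05. The fit was tested on simulated data. Levels are TMM-scaled CPM, and correlations used log2 CPM with a prior count of 2. Alternatives were RLE factors, no scaling, no low-count filter, DESeq2 1.42.0, a replicate block, the 2 groups alone, and each library left out. Where a left-out library leaves a group with 1 library, that library is taken to vary like the other groups.

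The members and lists were chosen with earlier results of these data known. Named genes were all members, up to 4 genes per list, comparison and direction by adjusted p, genes overlapping a member or starting within 5000 bases on the other strand, and the 3 genes most correlated with each member. Gene spans and promoter sequences are those of RefSeq (GRCh38.p14), which held promoters for 9 of the 10 members. CEBPB, and the ligands, markers and interferon-gamma targets given by their counts, were named after their values were seen.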

Additional observations from a re-analysis of the deposited data

How the results depend on the processing

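Of 16 calls of a member in a comparison, 7 held in all 10 alternatives tried for each: IL6ST with estradiol, in starved vehicle cells, with fulvestrant and with raloxifene, IL1R1 with estradiol and in starved vehicle cells, and OSMR in starved vehicle cells. The other 9 were lost in at least 1 alternative, and none reversed. RLE factors, no scaling, no low-count filter and the replicate block changed no member's call. With DESeq2 the members called numbered 2 with estradiol (4 with edgeR), 3 in starved vehicle cells (5), 0 with estradiol against complete vehicle (1), 1 with fulvestrant (2) and 1 with tamoxifen against fulvestrant (2). Fitting only tamoxifen and fulvestrant gave 0. Leaving out each library gave 2 to 3 members with estradiol, 4 in starved vehicle cells, 0 to 1 with estradiol against complete vehicle, 1 to 2 with fulvestrant, 0 to 1 with tamoxifen and 0 to 1 with tamoxifen against fulvestrant. The causes were not tested.

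Over all genes, counts moved more. DESeq2 called 1090 genes with estradiol (2051 with edgeR), 2313 in starved vehicle cells (4386) and 2060 with estradiol against complete vehicle (3788), and 19 with tamoxifen (12). With the replicate block the counts were 498 for fulvestrant (270), 490 for raloxifene (133), 172 for tamoxifen (12), 77 for raloxifene against fulvestrant (24), 242 for tamoxifen against fulvestrant (108) and 35 for tamoxifen against raloxifene (1). The shared numbers are not shown to pair libraries: same-numbered libraries deviated together with a correlation of 0.099 to 0.423 between groups, and each group has only 2. Without the low-count filter the counts were 354 for raloxifene, 93 for tamoxifen, 90, 170 and 65 for the drug pairs in that order. Fitting 2 groups alone gave 21 for tamoxifen, 66 for tamoxifen against fulvestrant and 0 for tamoxifen against raloxifene. Leaving out a library gave 1155 to 1325 genes with estradiol, 2555 to 2875 in starved vehicle cells, 2229 to 2616 with estradiol against complete vehicle, 143 to 197 with fulvestrant, 29 to 204 with raloxifene, 0 to 13 with tamoxifen, 14 to 168 with raloxifene against fulvestrant, 48 to 86 with tamoxifen against fulvestrant and 0 to 164 with tamoxifen against raloxifene. With estradiol 57.4% of calls were higher, against 45.7% without scaling, and the median log2 fold change of all genes was -0.0132 with TMM and -0.0502 without scaling. Depth limits SOCS2, SOCS3, IFNGR2 and LIFR most.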
